A study of Arabidopsis thaliana with 6 samples.

Results

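The enzymes and expansins that loosen and remodel the root cell wall were followed here across plants labelled RXR1 overexpressor, rxr1 mutant and wild type. They comprise 43 genes of the 13286 loci that carried a name on the array. They were chosen by family name, less 4 genes: xyloglucan endotransglucosylase/hydrolases (XTH, 9 genes), alpha-expansins (EXPA, 8), beta-expansins (EXPB, 4), expansin-like A and B proteins (EXLA, 3, and EXLB, 2), endoglucanases of glycoside hydrolase family 9 (GH9, 14) and pectin methylesterases (PME, 3). A gene entered when its symbol or a synonym had the form of such a family name. XTH26, EXPA7, EXPA18 and GH9C1, which act in root hairs, were left out with their fall in the overexpressor already known. Pectin methylesterase inhibitors (PMEI) had 0 measured members, so the inhibitor side of pectin control was not analysed here. The rule fitted 106 loci of the gene table, and the 43 were those with a probe set (a group of probes for 1 transcript) that the platform annotation tied to a single gene. The 106 were 32 XTH, 23 EXPA, 6 EXPB, 3 EXLA, 3 EXLB, 20 GH9, 15 PME and 4 PMEI loci. Each of the 43 had 1 probe set, and all 43 were tested, since no filter on low values was applied.

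RNA came from roots of Arabidopsis thaliana seedlings aged 7 days, grown upright on solid MS medium, and was measured on Affymetrix ATH1 arrays. There were 3 genotypes with 2 arrays each: RXR1 overexpressor, rxr1 mutant and wild type. RXR1 (AT3G25240) belongs to the DUF506 proteins and is known for limiting how long root hairs grow. The promoter of the overexpression construct, the mutant allele, the number of independent lines and the accession are not given in the sources used here. Whether the 2 arrays of a genotype stand for different plants or plates is not stated, so each p-value reflects array-to-array spread alone, and that spread may be technical.

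A growing plant cell is held by a wall in which cellulose microfibrils are tethered by xyloglucan and embedded in pectin. XTH enzymes cut and rejoin xyloglucan, expansins loosen the contacts between cellulose and xyloglucan without cutting them, and GH9 endoglucanases cut beta-1,4-glucans. Pectin methylesterases remove methyl groups from pectin, which can stiffen the wall through calcium bridges or open it to cleavage. In roots these families are known for cell elongation and for the outgrowth of root hairs and lateral roots.

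RXR1 had 0 probe sets under its name, so the genotype labels could not be checked on its own level. Array medians ran from 108.3 to 111.3 RMA intensity units. Wild-type replicate 2 stood apart: in the authors' deposited table its correlations with the other 5 arrays were 0.97 to 0.9826, against 0.9938 to 0.9978 among the other pairs. It was the highest or lowest of the 6 arrays for 58.1% of the 43 genes and for 55.4% of all probe sets. One actin control gave a 3' minus 5' difference, a sign of RNA quality, of 1.21 and 1.11 log2 in the overexpressor arrays, 1.29 and 1.19 in the mutant arrays, and 1.39 and 1.40 in the wild-type arrays. In a second actin control the mutant arrays (3.22 and 3.32) and the wild-type arrays (3.32 and 3.36) overlapped, with 3.18 and 3.02 in the overexpressor. For GAPDH the difference was 0.66 and 0.58 in the overexpressor, 0.67 and 0.36 in the mutant, and 0.58 and 0.57 in wild type, and for ubiquitin 1.40 and 1.36, 1.34 and 1.32, and 1.36 and 1.31 in the same order, so the overexpressor was not lower in these 2 controls. The part of these differences in the results was not tested. Of 8 marker lists for root cell types and for root and shoot, only the root hair list had measured members (4), so the tissue label could not be checked further.

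In the overexpressor, no wall gene of the 43 passed the test against wild type. The values that stood out were positive for the alpha-expansin EXPA9 (0.63 on the log2 scale, 1.54-fold) and the endoglucanase GH9C3 (0.35), and negative for XTH33 (-0.45) and XTH18 (-0.34). A gene passed when its limma p, adjusted by Benjamini-Hochberg over all 22746 probe sets, was under 0.05. That was met by 0 of 43 genes and by 0.101% of all probe sets. The lowest adjusted p among the 43 was 0.274, for XTH33. At an unadjusted p under 0.05 there were 8 of the 43 (18.6%), against 11.8% of all probe sets. Of these 5 were higher and 3 lower, where 5.36% of all probe sets were higher and 6.48% lower. With wild-type replicate 2 left out there were 7, against 12.7%. With wild-type replicate 1 left out, replicate 2 was the lone control. EXPA9 was then at 0.95, GH9C3 at 0.55, XTH33 at -0.62 and XTH18 at -0.46. With all 6 arrays more than 1.5-fold was reached by 1 gene, EXPA9, and by 1.34% of all probe sets. The arrays are of whole roots, in which fewer cells of a type and less RNA per cell cannot be told apart.

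The 43 genes lay on the positive side more often than not: 25 were above 0 and 18 below, with a median of 0.06. Of all probe sets 51.6% were above 0 and 48.4% below, with a median of 0.01. The 4 root hair genes of these families, left out with their fall known, were all below 0 and are not in these counts. This lean thus depends in part on that choice. The sign held in 26 of the 43 genes whichever array was left out. The median of the 43 genes was 0.0179 without wild-type replicate 2 and 0.105 without wild-type replicate 1. In 19 genes (44.2%) both overexpressor arrays were above both wild-type arrays, against 21.6% of all probe sets. In 7 genes (16.3%) both were below, against 19.8%, and in either direction 41.4% of all probe sets did not overlap. Leaving out wild-type replicate 2, an alternative chosen after seeing the data, gave 20 and 15, against 35.4% and 39.2% of all probe sets. The median size of the differences, sign apart, was 0.12 for the 43 genes and 0.10 for all probe sets.

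In the rxr1 mutant, too, no gene of the 43 passed the test against wild type. The largest values were a negative one for EXLA3 (-1.11) and a positive one for EXPA9 (0.65, 1.57-fold). The lowest adjusted p was 0.524, held by XTH18 and others, and 0.0044% of all probe sets passed. At an unadjusted p under 0.05 there were 12 of the 43 (27.9%), against 9.33% of all probe sets. Of these 6 were higher and 6 lower, where 4.99% of all probe sets were higher and 4.33% lower. With wild-type replicate 2 left out there were 7, against 12.4%. With wild-type replicate 1 left out, EXPA9 was at 0.97, EXLA3 at -0.81 and XTH33 at -0.60. With all 6 arrays more than 1.5-fold was reached by 2 genes, EXLA3 and EXPA9, and by 0.783% of all probe sets.

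Here 20 genes lay above 0 and 23 below, with a median of -0.04, where 48.4% of all probe sets were above 0 and their median was -0.01. The median of the 43 genes was -0.000428 without mutant replicate 2. In 16 genes (37.2%) both mutant arrays were below both wild-type arrays, against 19% of all probe sets, and in 10 (23.3%) both were above, against 19.1%. In either direction 38.1% of all probe sets did not overlap. Leaving out wild-type replicate 2 gave 22 and 11, against 38.8% and 34.2%. Both lines were compared with the same pair of wild-type arrays, so their differences share these controls.

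**Figure D1:**
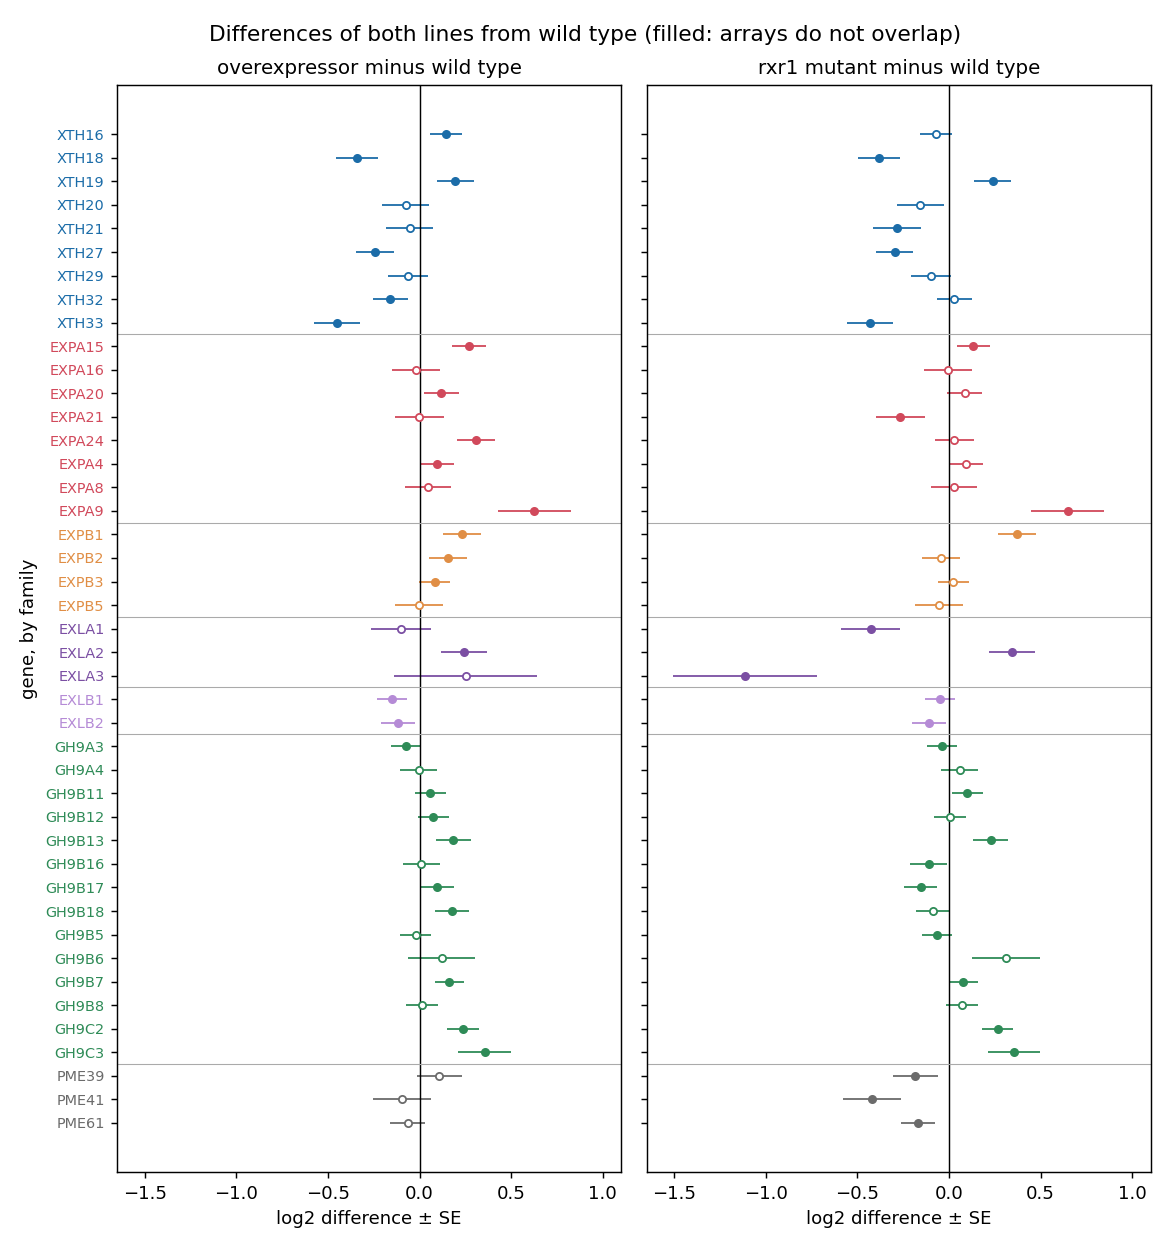
Log2 difference (x axis, with the standard error as a bar) of each of the 43 genes (y axis, coloured by family) in the RXR1 overexpressor (left) and the rxr1 mutant (right) against wild type, 2 arrays per genotype. Filled points are genes whose arrays do not overlap between the groups. EXLA3 in the mutant (-1.11) lies farthest from 0, and none of the points passed the test.

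The 9 measured XTH genes, of 32 named XTH loci, lay below wild type more often than above it. In each line 7 of 9 were below 0, with medians of -0.08 in the overexpressor and -0.16 in the mutant, and 0 passed. Of all probe sets 48.4% were below 0 in the overexpressor and 51.6% in the mutant. In the overexpressor XTH20, XTH21 and XTH29 had arrays that overlapped wild type, and their sign turned with single arrays left out. XTH33 (AT1G10550) encodes an XTH with a predicted membrane anchor. Its log2 RMA signal was 5.67 and 5.58 in the overexpressor, 5.68 and 5.60 in the mutant, and 5.90 and 6.24 in wild type. All 4 arrays of the lines were below both wild-type arrays, and wild-type replicate 2 was the highest. The difference was -0.45 ± 0.13 in the overexpressor and -0.43 ± 0.13 in the mutant (SE, n = 2 per group, adjusted p = 0.274 and 0.524). They were -0.28 and -0.26 without wild-type replicate 2.

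XTH18 (AT4G30280) and XTH19 (AT4G30290) belong to a group of XTH genes known from roots and lie next to each other in the genome. XTH18 had 8.97 and 9.14 in the overexpressor, 9.07 and 8.96 in the mutant, and 9.28 and 9.51 in wild type. XTH19 had 10.02 and 10.03 in the overexpressor, 10.04 and 10.10 in the mutant, and 9.95 and 9.72 in wild type. The neighbours thus took opposite sides: XTH18 was lower and XTH19 higher in all 4 arrays of the lines than in either wild-type array. XTH18 differed by -0.34 ± 0.11 in the overexpressor and -0.38 ± 0.11 in the mutant (adjusted p = 0.344 and 0.524). XTH19 differed by 0.19 ± 0.10 and 0.24 ± 0.10 (adjusted p = 0.494 and 0.536). Against wild-type replicate 1 alone the XTH19 values were 0.08 and 0.12, and those of XTH18 were -0.23 and -0.26.

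XTH27 (AT2G01850, also EXGT-A3), known from developing veins, had differences of -0.24 ± 0.10 in the overexpressor and -0.30 ± 0.10 in the mutant (adjusted p = 0.416 and 0.524). Its arrays did not overlap wild type in either line. Without wild-type replicate 2 the XTH27 values were -0.15 and -0.21. XTH32 (AT2G36870) had no overlap in the overexpressor alone, at -0.16 (adjusted p = 0.551). Its arrays read 8.09 and 8.06 there, 8.33 and 8.20 in the mutant, and 8.31 and 8.16 in wild type. Mutant and wild-type arrays overlapped for this gene. Of the remaining 4 members, XTH16, XTH20, XTH21 and XTH29, the values ran from -0.08 to 0.14 in the overexpressor and from -0.28 to -0.07 in the mutant. The XTH29 probe set had a low signal, 4.01 or less in every array.

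Alpha-expansins among the 43 genes lay mostly above 0, with 6 of 8 positive in each line and 0 passing. Of all probe sets 51.6% were positive in the overexpressor and 48.4% in the mutant. EXPA7 and EXPA18, which the rule left out, were at -0.76 and -0.72 in the overexpressor and -0.18 and -0.03 in the mutant. EXPA9 (AT5G02260) carried the highest value of the 43 genes in both lines. Its signal was 8.87 and 8.77 in the overexpressor, 8.97 and 8.71 in the mutant, and 8.51 and 7.87 in wild type. The 4 arrays of the lines were close together and above both wild-type arrays, which were themselves 0.64 apart. The difference was 0.63 ± 0.20 in the overexpressor and 0.65 ± 0.20 in the mutant (adjusted p = 0.322 and 0.524). Against wild-type replicate 1 alone it was 0.31 and 0.33.

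EXPA24 (AT5G39310) had 4.72 and 4.57 in the overexpressor, 4.27 and 4.46 in the mutant, and 4.30 and 4.37 in wild type. It was higher in the overexpressor arrays than in the other 4, by 0.31 ± 0.10 against wild type (adjusted p = 0.344). Its probe set was dim, a word used here for a mean log2 signal under 4.60 over the 6 arrays. EXPA15 (AT2G03090) had 10.67 in each overexpressor array, 10.46 and 10.61 in the mutant, and 10.44 and 10.37 in wild type. Its overexpressor difference of 0.27 ± 0.09 (adjusted p = 0.344) kept to 0.24 to 0.31 whichever array was left out. EXPA16 (AT3G55500) gave the lowest value of the family in the overexpressor, -0.02, and EXPA21 (AT5G39260) in the mutant, -0.27. For EXPA21, whose probe set was dim, the mutant arrays read 4.43 and 4.05.

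Among beta-expansins, EXPB1 (AT2G20750) had 8.05 and 8.17 in the overexpressor, 8.28 and 8.22 in the mutant, and 7.98 and 7.77 in wild type. The groups were in the order mutant, overexpressor, wild type with no overlap between neighbours. Its difference from wild type was 0.23 ± 0.10 in the overexpressor and 0.37 ± 0.10 in the mutant (adjusted p = 0.437 and 0.524). These were 0.13 and 0.27 without wild-type replicate 2. EXPB5 (AT3G60570), a dim probe set, had the lowest values of the family, -0.00 and -0.06. Of the 4 genes, 3 were above 0 in the overexpressor and 2 in the mutant.

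Expansin-like proteins share the fold of expansins, and their action on the wall is not settled. EXLA3 (AT3G45960) varied more across the 6 arrays than any other of the 43 genes, over a range of 2.30 log2 units. It had 6.50 and 7.53 in the overexpressor, 5.23 and 6.08 in the mutant, and 7.07 and 6.46 in wild type. Both mutant arrays were below the other 4. Overexpressor replicate 1 lay between the wild-type arrays, and overexpressor replicate 2 above both. The mutant difference was -1.11 ± 0.39 (95% interval -2.04 to -0.19, adjusted p = 0.524), and leaving out single arrays moved it between -1.54 and -0.69. The overexpressor difference was 0.25 ± 0.39 (-0.67 to 1.17, adjusted p = 0.832), and it turned to -0.26 without overexpressor replicate 2.

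EXLA1 (AT3G45970) lies next to EXLA3 and had 7.78 and 8.16 in the overexpressor, 7.52 and 7.77 in the mutant, and 7.93 and 8.21 in wild type. Its mutant arrays were also below all others, by -0.43 ± 0.16 against wild type (adjusted p = 0.525). In the overexpressor its difference was -0.10, with overlapping arrays. EXLA2 (AT4G38400), at another locus, took the opposite side. It had 6.47 and 6.54 in the overexpressor, 6.67 and 6.54 in the mutant, and 6.43 and 6.09 in wild type. It was higher than wild type by 0.24 ± 0.13 and 0.35 ± 0.13 (adjusted p = 0.492 and 0.525), and by 0.07 and 0.18 without wild-type replicate 2. The 2 EXLB genes stayed within 0.20 log2 units across all arrays: EXLB1 (AT4G17030) was at -0.15 and -0.05, and EXLB2 (AT4G30380) at -0.12 and -0.11. The probe set of EXLB2 was dim.

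**Figure D2:**
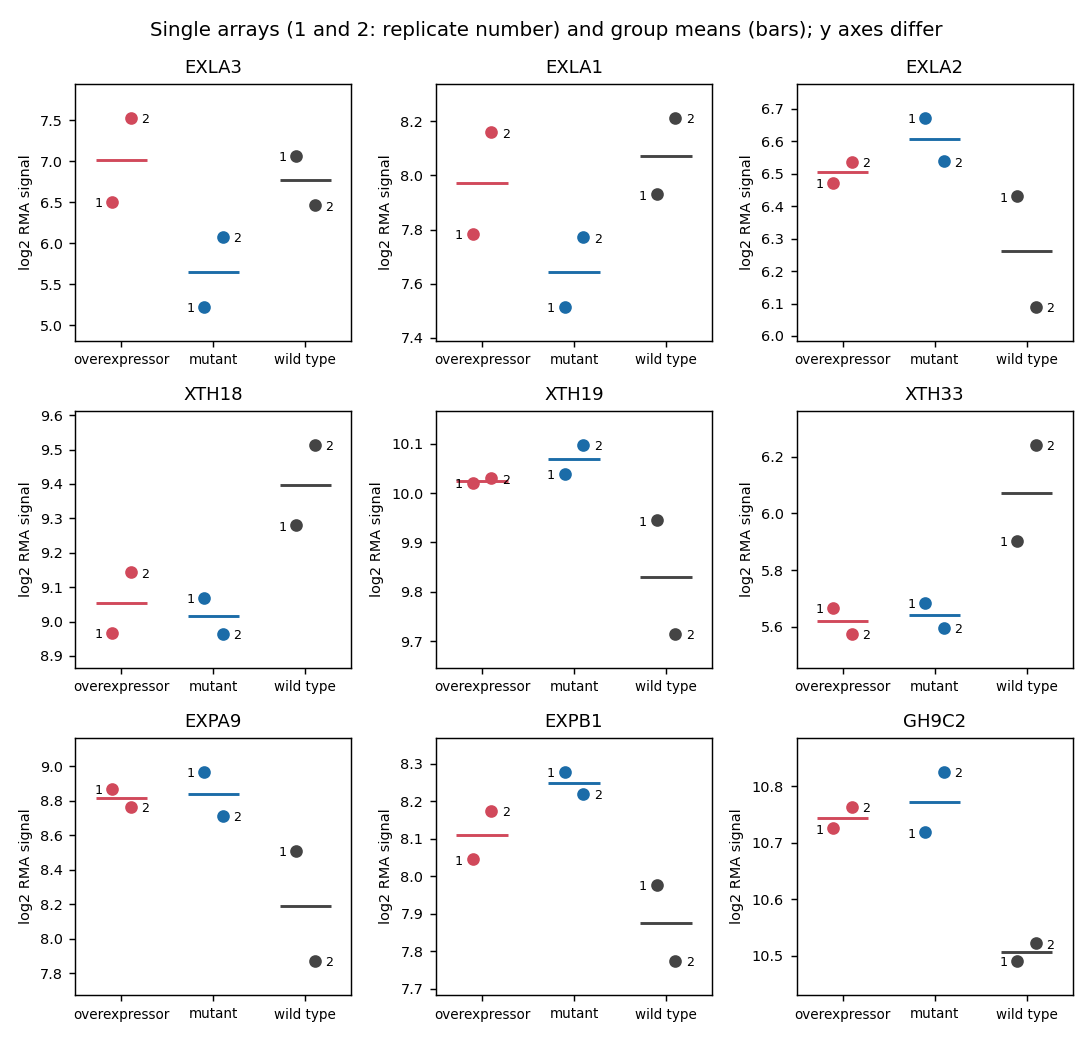
Log2 RMA signal (y axis, scaled separately for each gene) of 9 genes in single arrays of the RXR1 overexpressor, the rxr1 mutant and wild type (x axis), with bars for the mean of the 2 arrays. For EXPA9, EXLA2 and XTH19 wild-type replicate 2 is far below replicate 1, while for GH9C2 the wild-type arrays lie at 10.49 and 10.52.

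GH9 endoglucanases lay above 0 in 11 of 14 genes in the overexpressor (median 0.08) and in 9 of 14 in the mutant (median 0.06), with 0 passing. The GH9C class carries a carbohydrate-binding module at its end. GH9C2 (AT1G64390) had 10.73 and 10.76 in the overexpressor, 10.72 and 10.83 in the mutant, and 10.49 and 10.52 in wild type. All 4 arrays of the lines were above both wild-type arrays, which were close to each other. The difference was 0.24 ± 0.09 in the overexpressor (1.18-fold, 95% interval 0.04 to 0.44, adjusted p = 0.371) and 0.27 ± 0.09 in the mutant (1.20-fold, 0.06 to 0.47, adjusted p = 0.524). Over the 6 fits with an array left out these ran from 0.22 to 0.26 and from 0.21 to 0.32.

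GH9C3 (AT4G11050) had 6.84 and 6.67 in the overexpressor, 6.83 and 6.67 in the mutant, and 6.59 and 6.21 in wild type. It was at 0.35 and 0.36 against wild type (adjusted p = 0.406 and 0.533), and at 0.16 and 0.17 without wild-type replicate 2. GH9A3 (AT4G24260), a relative of the membrane-bound endoglucanase KORRIGAN of cellulose synthesis, gave the lowest value in the overexpressor, -0.07. It varied least of all 43 genes, over 0.11 log2 units. GH9B17 (AT4G39000) gave the lowest in the mutant, -0.15. GH9B6 (AT1G23210) had 4.93 and 4.92 in the overexpressor, 5.25 and 4.99 in the mutant, and 5.09 and 4.52 in wild type, so that its mutant and wild-type arrays overlapped.

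All 3 measured pectin methylesterase genes, of 15 named PME loci, were lower in both mutant arrays than in either wild-type array. Their overexpressor arrays overlapped wild type. Of all probe sets 19% were lower in the mutant in this way, and 38.1% did not overlap in either direction. None of the 3 passed. PME41 (AT4G02330), known from responses to cold and infection, had 5.49 and 5.95 in the overexpressor, 5.27 and 5.52 in the mutant, and 5.82 and 5.82 in wild type. Its mutant difference was -0.42 ± 0.16 (adjusted p = 0.525), and -0.42 without wild-type replicate 2. PME61 (AT3G59010, also PME35), known for the stiffness of stem fibres, was at -0.17 in the mutant. PME39 (AT4G02300) gave 0.11 for overexpressor and -0.18 for mutant roots. The probe sets of PME39 and PME61 were dim. Their mutant differences were -0.08 and -0.09 against wild-type replicate 2 alone, and -0.29 and -0.25 against wild-type replicate 1 alone.

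**Figure D3:**
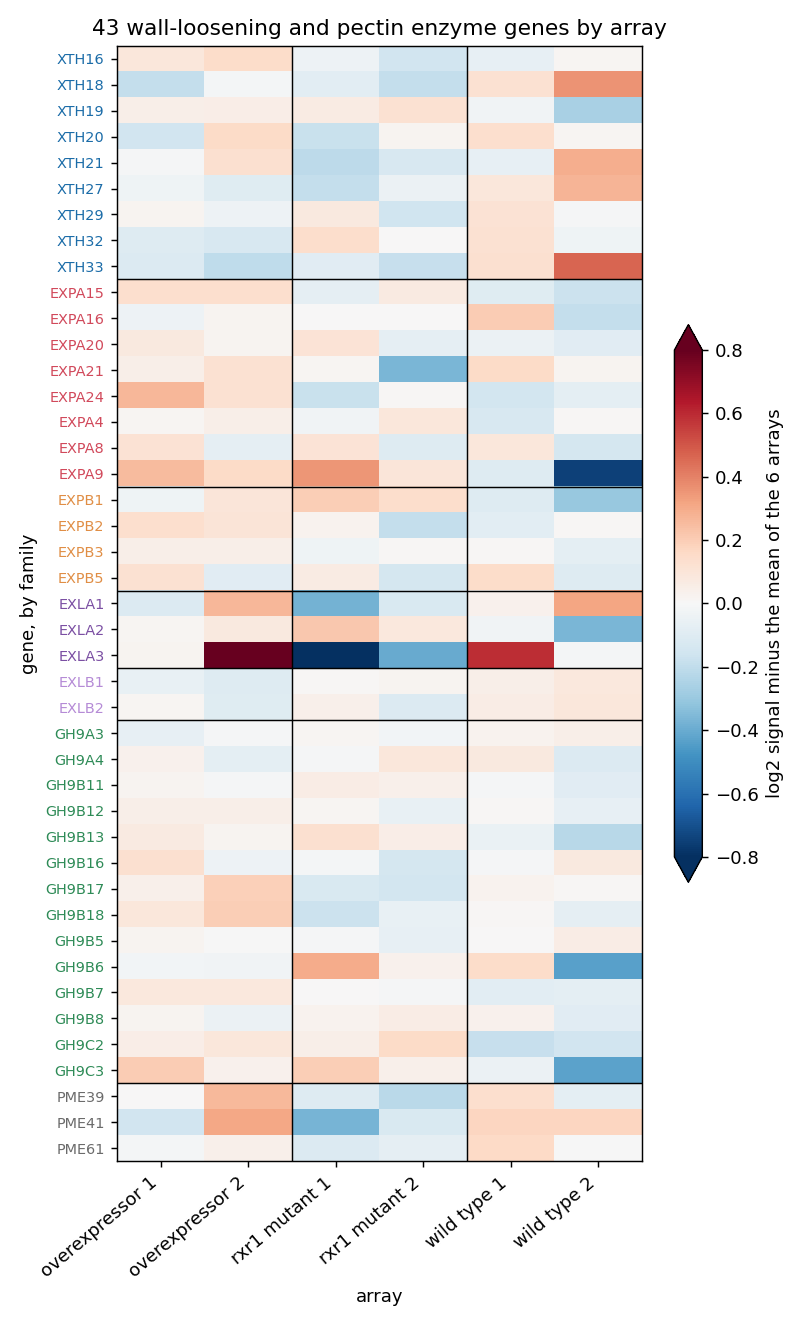
Log2 RMA signal of the 43 genes (rows, by family) in each of the 6 arrays (columns), as the difference from the gene's mean over the 6 arrays; red is higher and blue lower, and the scale ends at 0.8 on either side. The last column, wild-type replicate 2, holds the lowest value of 16 genes and the highest of 9, and EXLA3 is the row with the strongest contrast.

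Between the overexpressor and the mutant, 0 of 43 genes passed (0.0132% of all probe sets did). The largest differences were those of the neighbours EXLA3 and EXLA1 and of single PME, EXPA and GH9 genes, and they were positive. EXLA3 was higher by 1.37 ± 0.39 (2.58-fold, 95% interval 0.44 to 2.29, adjusted p = 0.69), and by 0.85 without overexpressor replicate 2. At an unadjusted p under 0.05 there were 6 genes (14%), all of them higher in the overexpressor, against 5.05% of all probe sets in either direction, 2.31% higher and 2.73% lower. More than 1.5-fold was reached by EXLA3 alone of the 43 and by 0.87% of all probe sets. There were 26 genes above 0 and 17 below, where 51.4% of all probe sets were above and 48.6% below. In 16 genes (37.2%) both overexpressor arrays were above both mutant arrays, against 20.3% of all probe sets, and in 8 (18.6%) both were below, against 20.3%, with 40.6% of all probe sets not overlapping in either direction. The wild-type arrays did not enter these differences, but they did enter the estimate of spread.

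EXLA1 was at 0.33, EXPA24 at 0.28, EXPA21 at 0.26 and PME39 at 0.29 in this comparison, each with no overlap of the arrays. Single arrays left out moved EXLA1 between 0.14 and 0.51, EXPA24 between 0.18 and 0.37, EXPA21 between 0.07 and 0.45, and PME39 between 0.16 and 0.42. The low ends came without overexpressor replicate 2 for EXLA1 and PME39, without mutant replicate 1 for EXPA24 and without mutant replicate 2 for EXPA21. PME41 was at 0.33, with overlapping arrays, and at 0.0964 without overexpressor replicate 2. PME61 was at 0.10. GH9B16, GH9B17 and GH9B18 lie side by side in the genome and were at 0.12, 0.25 ± 0.09 and 0.26 ± 0.09. The probe set of GH9B16 was dim. GH9B18 (AT4G39010) had 5.81 and 5.92 in the overexpressor and 5.55 and 5.66 in the mutant, with 5.73 and 5.65 in wild type. GH9B17 had 4.82 and 4.97 in the overexpressor and 4.66 and 4.64 in the mutant, with 4.81 and 4.79 in wild type. For GH9B17 wild type thus lay between the lines. Adjacent copies can be alike in sequence. All 43 probe sets carried the plain name ending that Affymetrix gave to sets designed for 1 transcript, and cross-hybridisation between neighbours was not tested. XTH16 (AT3G23730) was at 0.22 (adjusted p = 0.971).

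Fewer genes were lower in the overexpressor than in the mutant, and by less. GH9B6 was at -0.19, XTH32 at -0.19 ± 0.10, EXPB1 at -0.14, EXLA2 and EXLB1 at -0.10 each, and GH9B8 (AT2G32990) at -0.06. Without mutant replicate 1 GH9B6 was at -0.06, XTH32 at -0.12 and EXLA2 at -0.03, and without overexpressor replicate 1 EXPB1 was at -0.07. Their arrays did not overlap between the lines, and their adjusted p-values were all 0.999. XTH33 and EXPA9 were among the genes that differed little between the lines. They were at -0.02 ± 0.12 (95% interval -0.31 to 0.27) and -0.02 ± 0.20 (-0.49 to 0.45). Centring the arrays on their medians turned both, to 0.00457 and 0.00136. Differences anywhere within these intervals remain possible, so likeness was not shown.

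**Figure D4:**
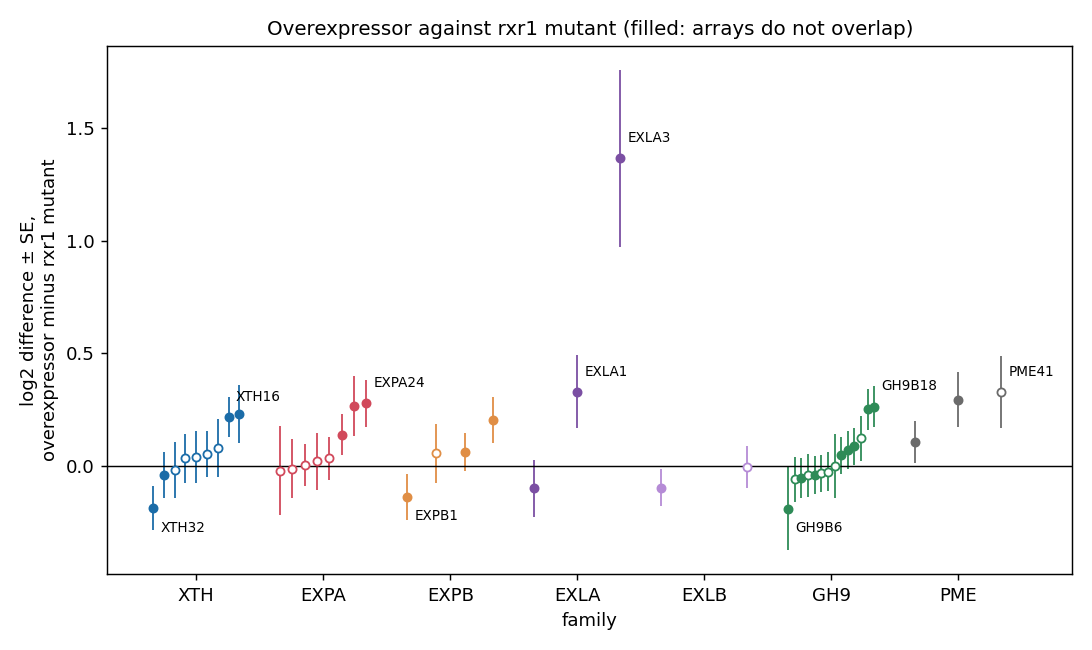
Log2 difference between the RXR1 overexpressor and the rxr1 mutant (y axis, with the standard error as a bar) for the 43 genes, ordered within each family (x axis); filled points are genes whose arrays do not overlap. EXLA3 at 1.37 is far above the rest, which lie between -0.19 and 0.33.

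The rest of the wall pathway was little represented: of 166 names in 6 lists, 20 were measured under a name, and 0 passed in any comparison. Of the CSLC family, in which CSLC4 is the known glucan synthase of the xyloglucan backbone, the 5 measured genes had a median of 0.17 in the overexpressor. CSLC4 was highest at 0.29, and CSLC12, from a dim probe set, was at 0.00 and turned to -0.001 after quantile normalization. In the mutant CSLC5 was highest (0.21) and CSLC12 lowest (-0.15). COB, which orients cellulose deposition, was at 0.14 and -0.02, and the pectin synthesis gene GAUT15 at -0.03 and -0.10. The polygalacturonase gene ADPG1 and the pectate lyase gene AT59 stayed within 0.05 of wild type in both lines, from dim probe sets that read 3.83 or less in every array.

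Of the wall sensing list, 2 of 6 genes were above 0 in each line. RALFL34, which encodes a peptide ligand of the receptor kinase THESEUS1, was at 0.27 ± 0.17 and 0.23 ± 0.17, with overlapping arrays in both lines. Without wild-type replicate 2 these were 0.0132 and -0.0223. The receptor kinase gene ANX1, known from pollen tubes and read from a dim probe set, was at -0.14 and -0.17. Among 5 subtilases listed as proteases of pectin methylesterases, ARA12 was at 0.21 and 0.29. SBT3.5, known to process a pectin methylesterase in roots, had 6.57 and 6.15 in the overexpressor, 6.94 and 6.80 in the mutant, and 6.91 and 6.78 in wild type. Its overexpressor arrays were below the other 4, by -0.48 ± 0.15 against wild type (adjusted p = 0.304) and -0.51 ± 0.15 against the mutant (adjusted p = 0.702), and by -0.27 and -0.29 without overexpressor replicate 2. SBT1.1, which is known to process a peptide hormone precursor rather than a pectin methylesterase, had 5.64 and 5.57 in the overexpressor, 5.98 and 6.03 in the mutant, and 6.03 and 6.38 in wild type. The overexpressor arrays were below the other 4, at -0.60 ± 0.12 against wild type (adjusted p = 0.181).

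Among the 4 root hair genes of the same families, 2 passed the test in the overexpressor against wild type, where 0.101% of all probe sets did. XTH26 fell by 1.34 and GH9C1 by 0.84 on the log2 scale in the overexpressor against wild type (adjusted p = 0.017 and 0.0357), and EXPA7 and EXPA18 were at -0.76 and -0.72 (adjusted p = 0.0526 and 0.127). Neither call held with only the 4 arrays compared (adjusted p = 0.0674 for XTH26 and 0.125 for GH9C1), nor without either mutant array, with the same values, and GH9C1 was at an adjusted p of 0.0501 with array weights. Without overexpressor replicate 1 the adjusted p was 0.401 and 0.503, and without overexpressor replicate 2 it was 0.344 and 0.372, while XTH26 stayed between -1.35 and -1.33 and GH9C1 between -0.90 and -0.78 whichever array was left out. The lowest values among the other genes of the 3 families were -0.45 for XTH, -0.02 for EXPA and -0.07 for GH9. In the mutant the root hair genes were at -0.36, -0.30, -0.18 and -0.03 in the same order of naming, within the range of their relatives for XTH and EXPA. These 4 had been set apart with their fall in the overexpressor known, so the contrast is a description with no test.

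**Figure D5:**
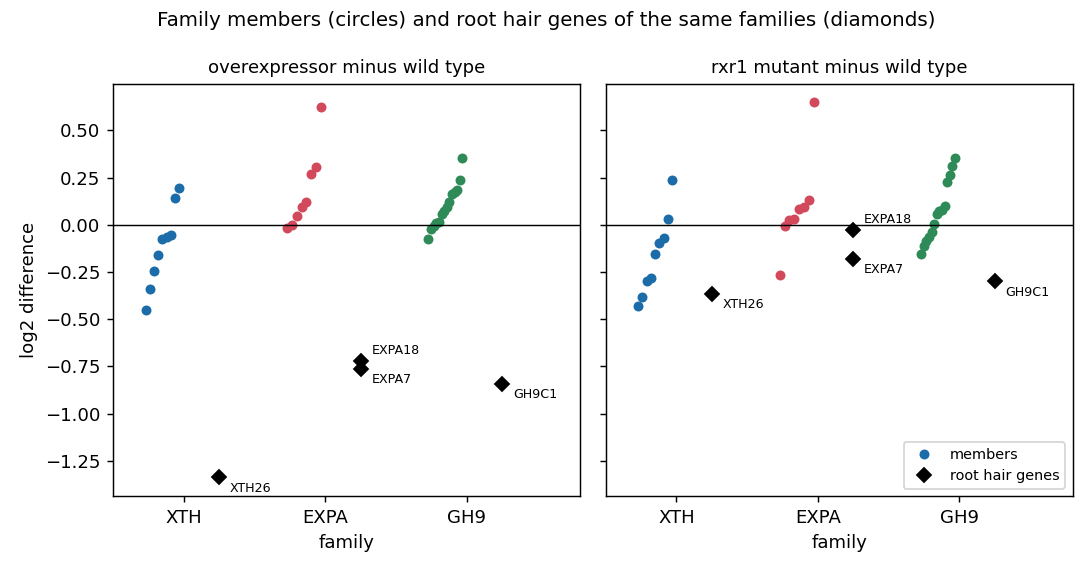
Log2 difference from wild type (y axis) of XTH, EXPA and GH9 genes (x axis; circles) and of the root hair genes of the same families (black diamonds) in the RXR1 overexpressor (left) and the rxr1 mutant (right), as means of 2 arrays per group. In the overexpressor all 4 root hair genes lie below every circle of their own family, with XTH26 at -1.34.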

How the data were processed

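The authors deposited RMA signals of 6 ATH1 arrays, intensity values that had not been put on a log scale. The submitters' processing notes name RMA and Affymetrix Expression Console without versions. The authors also deposited a correlation score for each pair of arrays, and a second copy of the signals differed by at most 5e-06. Log2 was taken with no pseudocount, and 64 control probe sets were left out of 22810. Probe sets were named by the platform annotation (13513 with 1 gene, 503 with several, 8730 with none listed), with symbols from the TAIR10.1 gene table, used for names and neighbours.

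The model was fitted with limma (version 3.58.1, R version 4.3.3) on all 6 arrays with a mean for each genotype. It had 3 residual degrees of freedom and 4.25 from the prior. Tests were two-sided, with Benjamini-Hochberg adjustment over 22746 probe sets in each comparison and a threshold of 0.05. The script was tested on simulated data in which all arrays of a probe set had the same spread. Wild-type arrays spread more here, so that test checked the script alone and not the power in these data. With 2 arrays per group the smallest p of an exact permutation test is 0.333. Of the 43 genes 11 were dim (mean log2 under 4.60). The number of arrays limits the precision.

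Genes and lists were chosen with earlier results of these data known. Genes were named if called, if among the 6 largest non-overlapping differences in either direction of a comparison, or if highest or lowest of their family or list against wild type; GH9B16, XTH16, XTH20, XTH21, XTH29 and SBT3.5 fall outside this rule and were chosen after their values were seen. Alternatives were leaving out each array, a replicate block, the 4 arrays compared, median centring, repeated quantile normalization, a filter on dim probe sets, a variance trend, array weights, means over probe sets and the second copy.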

Additional observations from a re-analysis of the deposited data

How the results depend on the processing

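With all 6 arrays, 0 of the 43 genes passed in each comparison, and this held under the 9 alternatives that keep all arrays of the groups compared. Among these, the means over probe sets and the second copy left the values of the 43 genes as they were. They were thus no separate check on these genes. The replicate block, the 4 arrays compared, the variance trend, the array weights and the filter on dim probe sets left each log2 difference unchanged. They bore on the spread, the p-values or the genes kept. Only median centring and repeated quantile normalization could move a difference or its sign. Leaving out single arrays gave 0 to 5 genes called in the overexpressor and 0 to 10 in the mutant against wild type. The 5 and the 10 came without wild-type replicate 1, where the lone control is the array that stood apart and its spread is taken from the other groups. They were XTH18, XTH33, EXPA9, EXLA2 and GH9C3 in both, and XTH19, XTH21, XTH27, EXPB1 and GH9B6 in the mutant; without wild-type replicate 2 there were 0. The median of the 43 genes ran from 0.0179 to 0.105 in the overexpressor and -0.0448 to -0.000428 in the mutant against wild type, and from 0.0187 to 0.0797 between the lines. The cause was not tested.

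Of the values followed through every alternative, 5 near 0 turned with all arrays kept: EXPB5 (0.00466) in the overexpressor and ADPG1 (-0.00465) in the mutant against wild type, and XTH33 (0.00457) and EXPA9 (0.00136) between the lines, after median centring, and CSLC12 (-0.00102) in the overexpressor after quantile normalization. Median centring raised the median of all probe sets between the lines to 0.03 and the genes above 0 to 31, against 26. Leaving out single arrays turned the sign of some values. In the overexpressor against wild type these ran from -0.26 to 0.77 for EXLA3, -0.29 to 0.0865 for EXLA1, -0.32 to 0.14 for PME41, -0.0207 to 0.24 for PME39, -0.21 to 0.18 for EXPA16, -0.13 to 0.12 for EXPB5, -0.0943 to 0.0971 for CSLC12, -0.165 to 0.10 for GAUT15, -0.29 to 0.00542 for ANX1, -0.0454 to 0.0911 for ADPG1, -0.13 to 0.0374 for AT59, -0.23 to 0.0767 for XTH20, -0.23 to 0.12 for XTH21 and -0.13 to 0.000948 for XTH29. In the mutant they ran from -0.18 to 0.0684 for EXPB5, -0.23 to 0.0361 for GAUT15, -0.13 to 0.10 for COB, -0.0223 to 0.48 for RALFL34, -0.0587 to 0.0813 for ADPG1, -0.13 to 0.0396 for AT59, -0.21 to 0.0222 for XTH29 and -0.166 to 0.113 for EXPA18. Between the lines they ran from -0.0643 to 0.0259 for XTH33 and -0.149 to 0.105 for EXPA9.

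The replicate numbers were not shown to pair the arrays: the replicate differences correlated at 0.125, 0.0533 and 0.316 between the groups. With the replicate block 0 of the 43 genes were called, while the calls over all probe sets became 167, 2 and 30, against 23, 1 and 3 without it. Over all probe sets the other alternatives with the 6 arrays gave 12 to 38 calls for the overexpressor, 1 for the mutant and 1 to 100 between the lines, and with only the 4 arrays compared 0, 0 and 58. Single arrays left out gave 0 to 3790, 0 to 2743 and 0 to 58.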
